A study of Mus musculus with 8 samples.

Results

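The CD3 complex and the proteins that act next to it were followed as messenger RNA through 9 genes, Cd3d, Cd3e, Cd3g, Cd247, Lck, Zap70, Lat, Cd5 and Cd6. They were taken by symbol from the gene lists of the matrices, as 9 of 31053 genes in experiment 1 and 9 of 32285 genes in experiment 2; the rule uses no measured value, but the genes were proposed with earlier results of these data known. All 9 were detected in all 4 expression libraries. CD8 T cells from MC38 tumours, grown from a mouse colon carcinoma line in wild type C57BL/6 mice, were profiled with 10x Genomics 5′ gene expression and paired T cell receptor (TCR) libraries. In experiment 1, mice with palpable tumours had received 10 mg/kg rhIL-7-hyFc, an Fc-fused recombinant human interleukin-7, under the skin, with tumours taken 7 days later, or buffer, and CD8 T cells were enriched on magnetic beads. In experiment 2, all mice had received 1.25 mg/kg rhIL-7-hyFc under the skin, either followed 3 days later by an intravenous bispecific T cell engager (TCE) that binds PD-L1 and CD3ε, or without it. Its tumours were taken 24 hours after the last dose, and living CD45+ TCRβ+ CD8α+ cells were sorted. The days from rhIL-7-hyFc to collection are not given for this experiment. A difference in that time cannot be told apart from the engager. Each group was 1 library, and the sources used here do not give the age or number of mice behind a library.

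The αβ chains of the TCR recognise a peptide on an MHC molecule but have almost no cytoplasmic tail, so the signal is carried by the CD3γ, CD3δ, CD3ε and ζ chains, the products of Cd3g, Cd3d, Cd3e and Cd247, through tyrosine motifs in their tails. LCK, a kinase held at the coreceptors CD4 and CD8, phosphorylates these motifs, ZAP70 docks on them, and ZAP70 phosphorylates LAT, the membrane scaffold on which the downstream signal is assembled. CD5 and CD6 are surface receptors known to tune TCR signalling, CD5 mostly as a brake. A CD3ε-binding engager triggers the same chain without the peptide, whatever the specificity of the TCR.

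T barcodes were those with a productive TCR β contig (TRB) in the matching table and at least 1 UMI of Cd8a or Cd8b1, after filters of at least 500 genes and under 10% mitochondrial UMIs. There were 5303 in the rhIL-7-hyFc 10 mg/kg library, against 2873 in buffer, and 8000 in the rhIL-7-hyFc plus TCE library, against 6880 in rhIL-7-hyFc 1.25 mg/kg. Median depth was 9722 and 9679 UMIs per T barcode in experiment 1 and 6365 and 6029 in experiment 2. The libraries of experiment 1 shared 45 barcode sequences and those of experiment 2 shared 195, of which 23 and 69 were T barcodes in both, and they were kept. Markers of CD4 T cells (3 genes) summed to 1.92 to 5.08 CPM. More than 1 productive TRB was carried by 216 to 785 T barcodes of a library. The summed level of 11 macrophage markers, all of them detected, was 192 CPM in T barcodes of rhIL-7-hyFc 10 mg/kg and 355 CPM in buffer, and 390 CPM in rhIL-7-hyFc plus TCE and 2653 CPM in rhIL-7-hyFc 1.25 mg/kg. With 1 library per group there is no test and no p-value for any difference: 95% intervals cover counting error only, and differences between mice are not covered.

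The 3 genes Cd3g, Cd3d and Cd3e are neighbours within 40056 bases of chromosome 9 (GRCm38, gene spans from the annotation). Cd3g lies at chr9:44969572-44980431 on the minus strand and Cd3d at chr9:44981786-44987339 on the plus strand, so that they are transcribed away from each other from start sites 1355 bases apart, with 0 annotated genes between. Cd3e lies at chr9:44998740-45009627 on the minus strand. These neighbours differed in how they varied between cells (below), and whether their promoters bear on that was not tested. The 250 bases before each RefSeq start site (GRCm38.p6) are shown, 5′ to 3′ on the gene's own strand. Capitals mark GGAA or its complement TTCC, the core of ETS and NFAT motifs.
Cd3g, chr9:44980432-44980681, minus strand: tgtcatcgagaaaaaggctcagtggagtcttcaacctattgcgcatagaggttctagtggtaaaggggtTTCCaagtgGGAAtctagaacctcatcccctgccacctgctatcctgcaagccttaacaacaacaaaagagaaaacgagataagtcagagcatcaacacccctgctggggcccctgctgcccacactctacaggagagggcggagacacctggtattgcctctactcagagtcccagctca
Cd3d, chr9:44981536-44981785, plus strand: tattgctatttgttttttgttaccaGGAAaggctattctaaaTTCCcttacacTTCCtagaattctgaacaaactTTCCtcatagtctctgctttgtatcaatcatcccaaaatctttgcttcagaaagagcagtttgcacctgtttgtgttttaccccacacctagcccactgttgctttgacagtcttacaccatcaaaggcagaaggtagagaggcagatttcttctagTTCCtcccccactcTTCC
Cd3e, chr9:45009612-45009861, minus strand: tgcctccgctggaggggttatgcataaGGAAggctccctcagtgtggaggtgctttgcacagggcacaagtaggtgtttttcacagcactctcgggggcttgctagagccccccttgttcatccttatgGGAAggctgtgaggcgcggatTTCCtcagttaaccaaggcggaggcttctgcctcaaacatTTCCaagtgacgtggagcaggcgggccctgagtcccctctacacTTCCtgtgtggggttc
The GGAA core occurred 2 times before Cd3g, 6 times before Cd3d and 5 times before Cd3e, on either strand, and 93.4% of 32851 mouse promoter windows of this length held at least 1, with a median of 3. The E-box CANNTG occurred 3 times before Cd3g and 1 time each before Cd3d and Cd3e, and 66.2% of windows held 1 or more. The window of Cd3d also held CTTTGA 2 times (in 13.8% of windows) and TTCNNNGAA 1 time (7.02% of windows), and that of Cd3g held GGGCGG 1 time (32.7% of windows), counting both strands throughout. GC content was 51.6% before Cd3g, 41.2% before Cd3d and 57.2% before Cd3e. The other members lie apart from this cluster, except that Cd5 (chr19:10717116-10739002) and Cd6 (chr19:10789341-10830058) are near each other on the minus strand of chromosome 19. Cd247 lies at chr1:165788681-165877277 and Zap70 at chr1:36761798-36782818 on the plus strand, Lck at chr4:129548344-129573641 and Lat at chr7:126363824-126369570 on the minus strand. The spans of Cd3e and Cd247 overlap other annotated genes, and the sources used here do not say how such reads were counted.

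Levels are given as CPM, the UMIs of a gene over a set of cells scaled by all UMIs of that set. A 5′ UMI marks 1 captured molecule whatever the transcript's length, but capture differs between genes, so values of different genes are not ranked. Over all T barcodes, Cd3d had 1289 CPM in rhIL-7-hyFc 10 mg/kg and 1190 CPM in buffer, and 1340 CPM in rhIL-7-hyFc plus TCE and 1164 CPM in rhIL-7-hyFc 1.25 mg/kg. Cd3e, whose product the engager binds, had 1197 and 1550 CPM in the same pair of experiment 1 and 1257 and 1062 CPM in that of experiment 2. Cd3g had 1179 CPM in rhIL-7-hyFc 10 mg/kg, 1796 CPM in buffer, 1519 CPM in rhIL-7-hyFc plus TCE and 1468 CPM in rhIL-7-hyFc 1.25 mg/kg. In experiment 1 Cd3g was thus the furthest apart of these 3 and Cd3d the closest, and in experiment 2 Cd3e was the furthest apart and Cd3g the closest. Among the kinases, Lck had 774 CPM in rhIL-7-hyFc 10 mg/kg and 658 CPM in buffer, and Zap70 had 244 and 293 CPM in the same libraries. In experiment 2, Lck had 594 CPM in rhIL-7-hyFc plus TCE and 558 CPM in rhIL-7-hyFc 1.25 mg/kg, and Zap70 had 250 and 210 CPM. Lat ranged from 375 to 589 CPM, Cd247 from 150 to 231 CPM, Cd6 from 135 to 222 CPM and Cd5 from 110 to 132 CPM.

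After thinning every cell to 1 depth (4300 UMIs in experiment 1, 3500 in experiment 2, leaving out 175 to 616 shallower T barcodes per library), a Cd3e UMI was found in 99.0% and 99.3% of T barcodes of experiment 1 and in 97.6% and 95% of those of experiment 2, with the rhIL-7-hyFc 10 mg/kg and the rhIL-7-hyFc plus TCE libraries first in each pair. Unthinned, Cd3e was found in 98.9% to 99.7%. In barcodes without a TCR contig but with at least 10 macrophage UMIs, Cd3e was found in 8.0% and 16.7% in experiment 1, and in 80.1% and 68.0% in experiment 2, at median depths of 13646, 7854, 20755 and 16350 UMIs. The barcodes of experiment 2 therefore do not give a level free of T cell RNA. Cd247, the gene of the ζ chain, was found in 63.0% and 55.9% of thinned T barcodes of experiment 1, and in 46.3% and 42.3% of those of experiment 2. In the macrophage barcodes Cd247 was found in 2.29% and 2.48% in experiment 1, and in 27.0% and 22.3% in experiment 2. For Cd5 the share was 37.3% and 35.4% in T barcodes of experiment 1 and 34.0% and 31.6% in experiment 2.

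**Figure D1:**
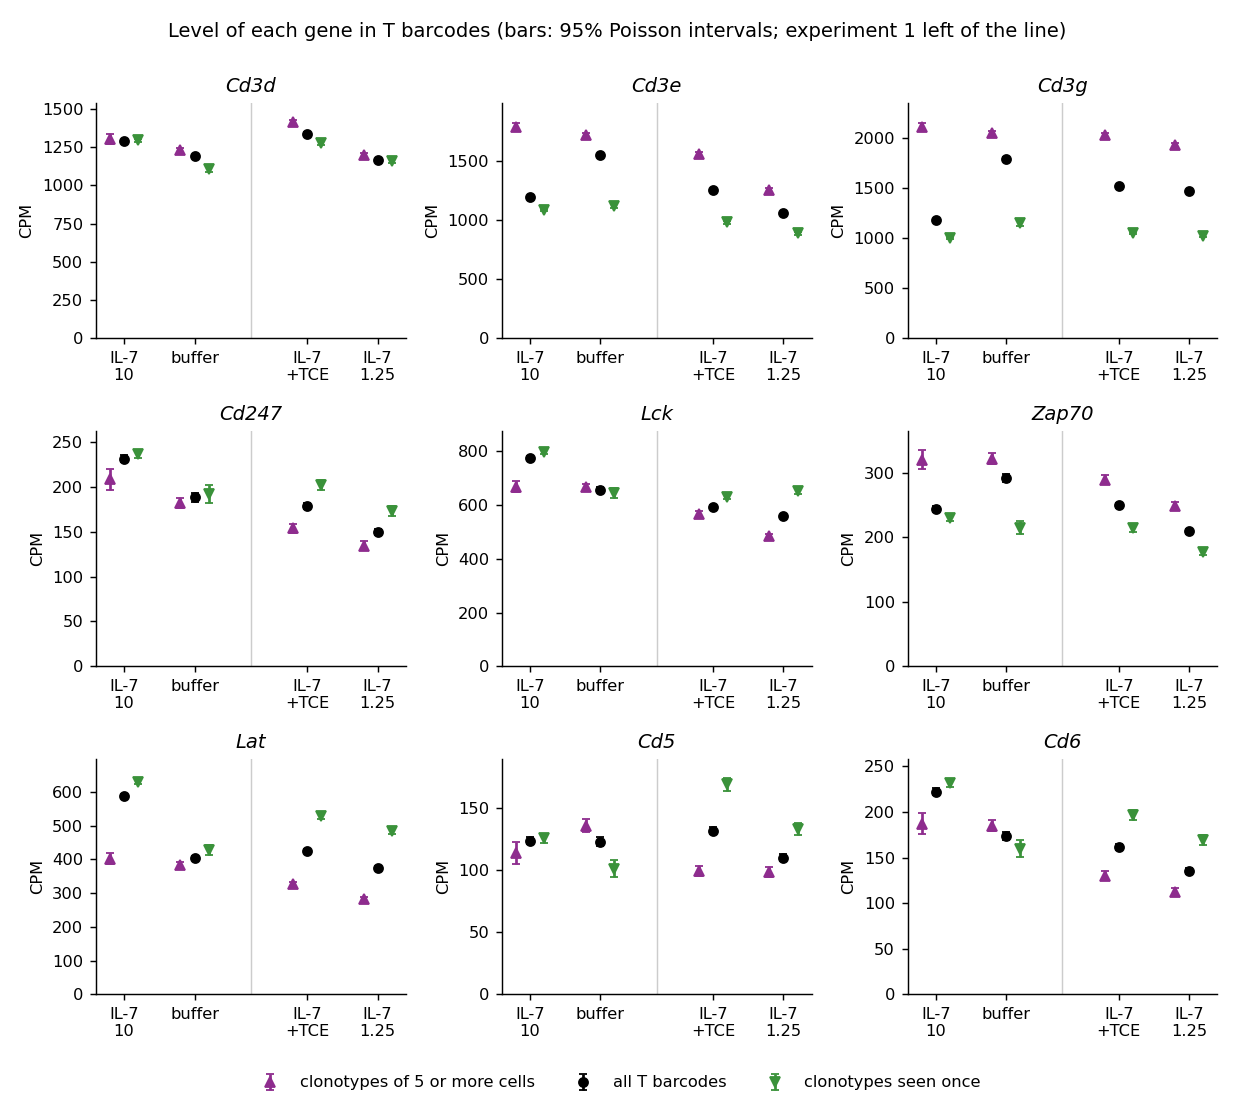
Level in CPM of each of the 9 genes (1 panel each) in the 4 libraries, for clonotypes of 5 or more cells, all T barcodes and clonotypes seen once, with 95% Poisson intervals and a line between the experiments. For Cd3g and Cd3e the clonotypes of 5 or more cells lie above those seen once in every library, while for Cd3d both lie between 1109 and 1415 CPM.

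Clone size separated the subunits. A clonotype is a TRB V gene with its CDR3 nucleotide sequence, among T barcodes with exactly 1 productive TRB. Clonotypes of 5 or more cells held 395 cells in rhIL-7-hyFc 10 mg/kg, 1538 in buffer, 3167 in rhIL-7-hyFc plus TCE and 2509 in rhIL-7-hyFc 1.25 mg/kg, against 4231, 892, 3519 and 3311 cells whose clonotype was seen once. Cd3g had 2116, 2047, 2030 and 1930 CPM in the expanded cells of the 4 libraries, in that order, and 1002, 1148, 1053 and 1023 CPM in cells seen once. The folds of Cd3g were 2.11 (2.07 to 2.16), 1.78 (1.74 to 1.82), 1.93 (1.90 to 1.96) and 1.89 (1.86 to 1.92). All 4 were past 1.5-fold on the higher side, as were those of 6.13% of the 8405 genes measured in all 4 libraries. Cd3e had 1792, 1722, 1558 and 1256 CPM in the expanded cells and 1086, 1124, 982 and 889 CPM in cells seen once. Its folds were 1.65 (1.61 to 1.69), 1.53 (1.5 to 1.57), 1.59 (1.56 to 1.61) and 1.41 (1.39 to 1.44), so Cd3e too was higher in expanded cells of all 4 libraries. Cd3d stayed within 1.11-fold in all 4, at 1304, 1232, 1415 and 1201 CPM in expanded cells and 1295, 1109, 1280 and 1160 CPM in cells seen once. Cd247 was lower in expanded cells, at 209, 182, 154 and 135 CPM against 237, 192, 203 and 173 CPM in cells seen once, with folds of 0.881 (0.829 to 0.935), 0.949 (0.893 to 1.01), 0.761 (0.729 to 0.795) and 0.779 (0.742 to 0.818). In buffer the interval of Cd247 reached past 1, and within cells with a Pdcd1 UMI the direction turned in rhIL-7-hyFc 10 mg/kg and in the rhIL-7-hyFc 1.25 mg/kg library.

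The kinases and the adaptor moved apart. Zap70 had 321, 323, 289 and 249 CPM in expanded cells of rhIL-7-hyFc 10 mg/kg, buffer, rhIL-7-hyFc plus TCE and rhIL-7-hyFc 1.25 mg/kg, and 230, 215, 215 and 178 CPM in cells seen once. All 4 folds of Zap70 were above 1, from 1.35 (1.30 to 1.40) in rhIL-7-hyFc plus TCE to 1.5 (1.42 to 1.58) in buffer. Lck was lower in expanded cells of 3 libraries, with folds from 0.741 (0.723 to 0.761) in rhIL-7-hyFc 1.25 mg/kg to 0.898 (0.878 to 0.919) in rhIL-7-hyFc plus TCE, and in buffer the fold was 1.03 (0.999 to 1.07), with the opposite sign under TMM and DESeq2 factors. Lat had 402, 384, 327 and 282 CPM in expanded cells and 631, 428, 529 and 484 CPM in cells seen once, and was lower in all 4, at 0.637 (0.610 to 0.665), 0.896 (0.860 to 0.934), 0.618 (0.601 to 0.636) and 0.583 (0.565 to 0.602). Buffer had the smallest Lat difference, which turned with each clonotype counted 1 time. Cd5 and Cd6 were lower in expanded cells of 3 libraries and higher in those of buffer. Cd5 had 114, 136, 99.4 and 98.4 CPM in expanded cells and 125, 101, 169 and 133 CPM in cells seen once, and Cd6 had 187, 185, 130 and 112 CPM against 232, 160, 196 and 169 CPM.

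Past 1.5-fold, on log2(CPM + 1), were 3 of 9 members in rhIL-7-hyFc 10 mg/kg (background 33.6% of 8873 genes with at least 5 CPM in either set, 23.2% higher and 10.4% lower), 2 of 9 in buffer (22.5% of 8911, 13.8% and 8.64%), 5 of 9 in rhIL-7-hyFc plus TCE (18.7% of 9245, 11.7% and 7.03%) and 3 of 9 in rhIL-7-hyFc 1.25 mg/kg (23.5% of 9392, 14.5% and 9%). Cd3g and Cd3e were the members past it on the higher side, Cd3e in all but rhIL-7-hyFc 1.25 mg/kg, and the lower ones were Lat in all but buffer, Cd5 and Cd6 in rhIL-7-hyFc plus TCE and Cd6 in rhIL-7-hyFc 1.25 mg/kg. Except in rhIL-7-hyFc plus TCE, the counts lie within 1 gene of the background share.

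Depth and other RNA also differed with clone size. Median depth was 13144, 11192, 6230 and 7439 UMIs in expanded cells of rhIL-7-hyFc 10 mg/kg, buffer, rhIL-7-hyFc plus TCE and rhIL-7-hyFc 1.25 mg/kg, and 9293, 7376.5, 6325 and 5172 UMIs in cells seen once. The 11 macrophage markers summed to 440, 340, 526 and 2857 CPM in expanded cells and 163, 402, 166 and 2024 CPM in cells seen once. Myeloid UMIs were counted over these markers and 8 markers of dendritic cells. Among barcodes with under 2 myeloid UMIs, classes added after the data had been seen, Cd3g had 2157, 2063, 2121 and 2442 CPM in expanded cells and 1008, 1126, 1087 and 1152 CPM in cells seen once. In counts thinned to 1 depth, Cd3g averaged 9.71, 9.34, 7.50 and 7.59 UMIs per expanded cell and 4.36, 4.91, 3.85 and 3.81 per cell seen once. The thinned Cd3e means were 7.93, 7.94, 5.71 and 4.99 UMIs and 4.80, 4.96, 3.55 and 3.33 UMIs. Scaling by TMM or DESeq2 size factors moved the median of all genes in this contrast of the rhIL-7-hyFc 10 mg/kg library by −0.26 and −0.25 on the log2 scale. Under those factors Cd3g there had log2 ratios of 0.82 and 0.83, against 1.08 without the factors, and Cd3d −0.25 and −0.24, against 0.01, so the direction of Cd3d in that library depends on the scaling, as it does with TMM factors in rhIL-7-hyFc 1.25 mg/kg.

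**Figure D2:**
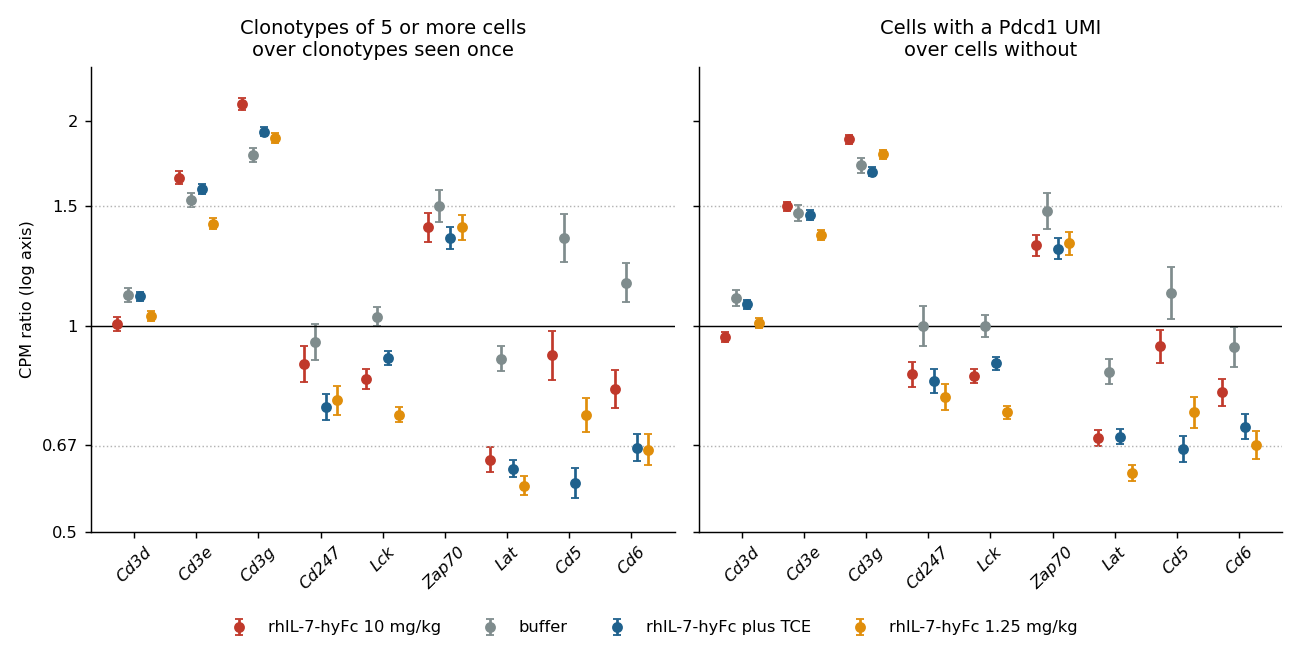
Ratio of CPM (log axis) of the 9 genes in each library, for clonotypes of 5 or more cells over clonotypes seen once (left) and for cells with a Pdcd1 UMI over cells without (right), with 95% counting intervals and dotted lines at 1.5-fold either way. Cd3g, Cd3e and Zap70 lie above 1 and Lat lies under 1 in all 4 libraries in both panels.

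Pdcd1 encodes PD-1, the inhibitory receptor of antigen-stimulated T cells, and a Pdcd1 UMI was found in 902 T barcodes of rhIL-7-hyFc 10 mg/kg, 2140 of buffer, 4963 of rhIL-7-hyFc plus TCE and 3467 of rhIL-7-hyFc 1.25 mg/kg. The remaining 4401, 733, 3037 and 3413 had none. In cells with a Pdcd1 UMI, Cd3g had 1841, 1932, 1777 and 1781 CPM, against 980, 1123, 1055 and 998 CPM in cells without, with folds of 1.88 (1.85 to 1.91), 1.72 (1.67 to 1.77), 1.68 (1.66 to 1.71) and 1.78 (1.76 to 1.81). Cd3e had 1608, 1637, 1415 and 1188 CPM with a Pdcd1 UMI and 1074, 1118, 973 and 873 CPM without, folds of 1.5, 1.47, 1.45 and 1.36. Zap70 was 1.31, 1.47, 1.30 and 1.32 times as high, and Lat 0.686, 0.857, 0.689 and 0.609 times. Cd3d stayed between 0.963 and 1.10, and in rhIL-7-hyFc 1.25 mg/kg its direction turned under both scaling factors. Cd3g, Cd3e and Zap70 were thus higher and Lat lower, as by clone size. Past 1.5-fold was 1 of 9 members in rhIL-7-hyFc 10 mg/kg (background 27.6%, 19.9% higher and 7.79% lower), 1 of 9 in buffer (23.1%, 14.2% and 8.94%), 2 of 9 in rhIL-7-hyFc plus TCE (15.1%, 9.91% and 5.2%) and 2 of 9 in rhIL-7-hyFc 1.25 mg/kg (22.3%, 14.3% and 7.99%). Cd3g was the member past it on the higher side in each library, and the lower ones were Cd5 in rhIL-7-hyFc plus TCE and Lat in rhIL-7-hyFc 1.25 mg/kg. Median depth was 12975, 11013, 6561 and 7642 UMIs in cells with a Pdcd1 UMI of the 4 libraries and 9394, 6850, 6101 and 5127 UMIs in cells without. The 11 macrophage markers summed to 306, 325, 499 and 2975 CPM in cells with a Pdcd1 UMI and 158, 499, 193 and 2171 CPM in cells without. Among barcodes with under 2 myeloid UMIs, Cd3g had 1856, 1933, 1872 and 2298 CPM with a Pdcd1 UMI and 989, 1142, 1090 and 1139 CPM without. Thinned to 1 depth, it averaged 8.21, 8.72, 6.67 and 7.08 UMIs per cell with a Pdcd1 UMI and 4.30, 4.87, 3.85 and 3.76 UMIs per cell without.

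Both classes overlap, so each was read within the other. Among cells with a Pdcd1 UMI, Cd3g was 1.58, 1.59, 1.81 and 1.63 times as high in expanded cells as in cells seen once, in rhIL-7-hyFc 10 mg/kg, buffer, rhIL-7-hyFc plus TCE and rhIL-7-hyFc 1.25 mg/kg. For Cd3e these ratios were 1.37, 1.41, 1.51 and 1.38, for Zap70 1.2, 1.33, 1.27 and 1.38, and for Lat 0.751, 0.871, 0.662 and 0.773. Among cells without a Pdcd1 UMI, where expanded cells numbered 14, 87, 125 and 122, Cd3g was 1.47, 1.59, 1.88 and 1.56 times as high and Cd3e 1.41, 1.44, 1.43 and 1.24 times. Zap70 was there at 0.959 (0.664 to 1.34), 1.39 (1.16 to 1.66), 1.16 (0.985 to 1.36) and 1.09 (0.922 to 1.27), so that its interval lay above 1 in buffer alone. Lat was at 0.753, 1.47, 0.619 and 0.522 in these cells, higher in expanded cells of buffer (1.31 to 1.65) and lower in the other 3 libraries. Within cells seen once, Cd3g was 1.39, 1.26, 1.09 and 1.21 times as high with a Pdcd1 UMI as without. Within expanded cells it was 1.49, 1.26, 1.05 and 1.27 times as high. In the rhIL-7-hyFc plus TCE library, therefore, Cd3g differed by 1.81-fold or more between clone sizes at a given Pdcd1 state and by 1.09-fold or less between Pdcd1 states at a given clone size. Its expanded cells had a median of 4572 UMIs without a Pdcd1 UMI and 6300 with it, so the state also follows depth. Over all clone sizes there, the 4 subunits summed to 3518, 4243, 4781 and 5387 CPM at 0, 1, 2 or 3, and 4 or more thinned Pdcd1 UMIs. Proliferation was checked beside this, as an Mki67 or Top2a UMI was found in 23.8% and 41.6% of T barcodes of rhIL-7-hyFc 10 mg/kg and buffer, and in 23.4% and 22.9% of those of rhIL-7-hyFc plus TCE and rhIL-7-hyFc 1.25 mg/kg. Among Pdcd1 cells, those with such a UMI had lower CPM of Cd3d (0.826 to 0.854 times), Cd3e (0.823 to 0.868 times) and Cd3g (0.804 to 0.826 times) than those without.

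The composition of the complex's RNA differed with clone size. UMIs of Cd3g per UMI of Cd3d numbered 1.62, 1.66, 1.43 and 1.61 in expanded cells of rhIL-7-hyFc 10 mg/kg, buffer, rhIL-7-hyFc plus TCE and rhIL-7-hyFc 1.25 mg/kg, and 0.774, 1.04, 0.823 and 0.882 in cells seen once. Such a ratio does not move with RNA that lacks both genes, but its size depends on how well each gene is captured. Over clone size the ratio in buffer was 1.04 in cells seen once, 1.62 at 2 to 4 cells, 1.57 at 5 to 9, 1.62 at 10 to 49 and 1.72 at 50 or more. In rhIL-7-hyFc plus TCE the same classes had 0.823, 1.13, 1.30, 1.40 and 1.49, and in rhIL-7-hyFc 1.25 mg/kg 0.882, 1.36, 1.56, 1.58 and 1.68. In rhIL-7-hyFc 10 mg/kg, which had no clonotype of 50 cells, it was 0.774, 1.47, 1.62 and 1.63. The step between clonotypes seen once and those of 2 to 4 cells was the largest of each library. Cd3e per Cd3d was 1.37, 1.40, 1.10 and 1.05 in expanded cells and 0.839, 1.01, 0.767 and 0.766 in cells seen once. Of the UMIs of all 4 subunits, Cd247 took 3.85%, 3.52%, 2.99% and 2.98% in expanded cells and 6.54%, 5.38%, 5.76% and 5.33% in cells seen once. Zap70 per Lck, the receptor-bound kinase over the one that phosphorylates its docking sites, was 0.479, 0.484, 0.510 and 0.514 in expanded cells and 0.288, 0.333, 0.340 and 0.273 in cells seen once.

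**Figure D3:**
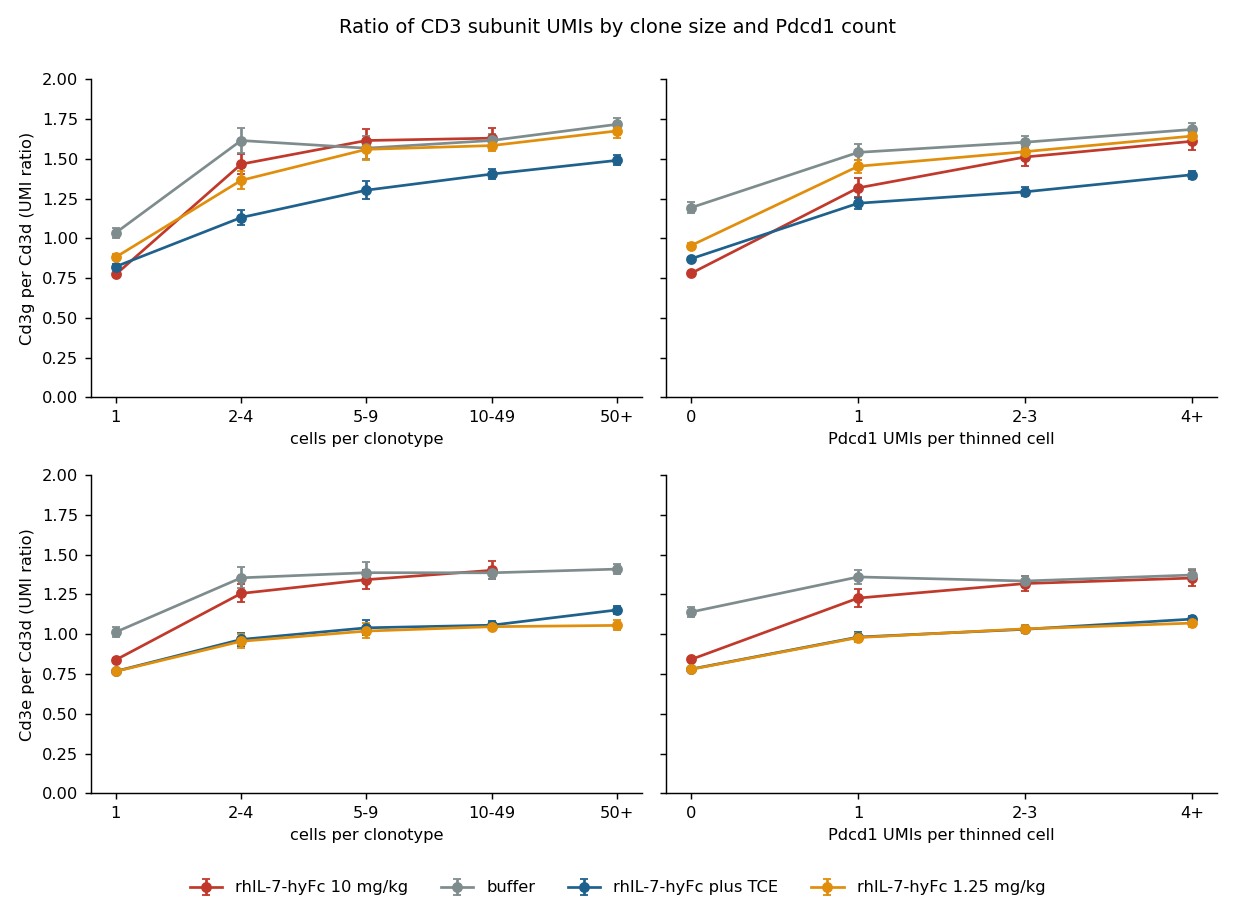
UMIs of Cd3g (top) and Cd3e (bottom) per UMI of Cd3d, by cells per clonotype (left) and by Pdcd1 UMIs per cell after thinning (right), 1 line per library with 95% counting intervals. The Cd3g ratio of clonotypes seen once lies between 0.774 and 1.04, and that of every class of 5 or more cells lies between 1.30 and 1.72.

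Single clonotypes were examined so that 1 large clone would not stand for the class. The 10 largest clonotypes had 11 to 25 cells in rhIL-7-hyFc 10 mg/kg, 49 to 154 in buffer, 55 to 513 in rhIL-7-hyFc plus TCE and 49 to 178 in rhIL-7-hyFc 1.25 mg/kg. In every library, Cd3g, Cd3e and Zap70 were above the level of cells seen once in 10 of these 10 clonotypes. These clonotypes are part of the expanded class and are not replicates. The share of all genes above that level in every 1 of them is not given. The lowest, median and highest Cd3g were 1687, 2049 and 2280 CPM in rhIL-7-hyFc 10 mg/kg, 1842, 2204 and 2517 CPM in buffer, 1809, 2129 and 2628 CPM in rhIL-7-hyFc plus TCE, and 1848, 2141 and 2711 CPM in rhIL-7-hyFc 1.25 mg/kg. Lat was above the level of cells seen once in 1, 1, 0 and 0 of 10 clonotypes. Lck was above it in 8 of 10 clonotypes of buffer but in 1 of 10 in rhIL-7-hyFc 10 mg/kg and in 0 of 10 in either library of experiment 2. Cd5 and Cd6 varied widely between clonotypes. In buffer Cd6 had a lowest, median and highest of 7.84, 172 and 360 CPM and Cd5 of 29.4, 156 and 263 CPM. Cd5 spanned 27.5 to 136 CPM in rhIL-7-hyFc plus TCE and 25.4 to 191 CPM in rhIL-7-hyFc 1.25 mg/kg. The assembled TRB contigs themselves, a separate library, held a median of 26, 27, 13 and 14 UMIs in expanded cells of the 4 libraries and 19, 16, 14 and 12 UMIs in cells seen once. TRA contigs held 14, 14, 8 and 8 UMIs in expanded cells and 8, 8, 6 and 6 in cells seen once. These contig counts are not scaled to depth, which also differed with clone size (above).

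Treatment was compared within an experiment. In experiment 1, over all T barcodes, Cd3g was lower in rhIL-7-hyFc 10 mg/kg, at 1179 CPM against 1796 CPM in buffer, a fold of 0.656 (0.649 to 0.664). Cd3e was 0.772 (0.763 to 0.781) and Zap70 0.835 (0.814 to 0.857) times the buffer level, with the direction of Zap70 turning when each clonotype was counted 1 time. Lat was higher, at 589 CPM in rhIL-7-hyFc 10 mg/kg and 404 CPM in buffer, a fold of 1.46 (1.43 to 1.49), as were Cd6 at 1.28 (1.24 to 1.32), Cd247 at 1.23 (1.19 to 1.27), Lck at 1.18 (1.16 to 1.2) and Cd3d at 1.08 (1.07 to 1.10). The fold of Cd5 was 1.01 (0.968 to 1.05). Past 1.5-fold was 1 of 9 members, Cd3g, on the lower side (background 23% of 8814 genes either way, 7.34% higher and 15.6% lower), and the members' median log2 ratio was 0.12 beside −0.15 for all genes. TMM and DESeq2 factors shifted the median of all genes by 0.20, which put Cd3g at −0.40 under both on the log2 scale, Cd3e at −0.16 and −0.17, and Lat at 0.75 under both. With barcodes of 2 or more myeloid UMIs left out (4.83% of rhIL-7-hyFc 10 mg/kg and 37.1% of buffer T barcodes), Cd3g was 0.659, Cd3e 0.764 and Lat 1.46.

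Clone classes were unequally filled between these libraries, and within a class the differences of Cd3g and Cd3e were smaller. Within expanded cells the folds of rhIL-7-hyFc 10 mg/kg over buffer were 1.03 for Cd3g, 1.04 for Cd3e, 1.06 for Cd3d, 1.14 for Cd247, 1.00 for Lck, 0.994 for Zap70 and 1.05 for Lat. Cd5 lay furthest from 1 and Cd247 next, with Cd5 at 114 CPM against 136 CPM in buffer, a fold of 0.838 (0.769 to 0.914). Within cells seen once, Cd3g was 0.872 and Cd3e 0.966 times the buffer level, while Cd3d was further apart than over all T barcodes at 1.17, and Lat was 1.47, Cd6 1.45, Cd5 1.24, Lck 1.24 and Cd247 1.23. Lat was thus as far apart within cells seen once as over all T barcodes, while Cd3g was not. By Pdcd1 state, Cd3g was 0.953 in cells with a UMI and 0.872 in cells without, and Lat was 1.11 and 1.39.

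In experiment 2, Cd3e encodes the engager's own target. Over all T barcodes it had 1257 CPM in rhIL-7-hyFc plus TCE and 1062 CPM in rhIL-7-hyFc 1.25 mg/kg, a fold of 1.18 (1.17 to 1.2). The other members were higher as well, at 1.15 for Cd3d, 1.03 for Cd3g (turned under TMM factors), 1.19 for Cd247, 1.07 for Lck, 1.19 for Zap70, 1.14 for Lat, 1.2 for Cd5 and 1.19 for Cd6. None was past 1.5-fold (0 of 9, background 9.81% of 9283 genes, 1.8% higher and 8.01% lower), with a median log2 ratio of 0.24 beside 0.08 for all genes. Myeloid RNA also differed between these libraries, since 2 or more myeloid UMIs were found in 7.23% of T barcodes of rhIL-7-hyFc plus TCE and in 26.7% of those of rhIL-7-hyFc 1.25 mg/kg. Such barcodes were 36.4% of cells with a Pdcd1 UMI and 16.8% of cells without in rhIL-7-hyFc 1.25 mg/kg. In rhIL-7-hyFc plus TCE they were 6.53% and 8.36%, so leaving them out also changed the mix of cells. Without them, Cd3e had 1313 CPM in rhIL-7-hyFc plus TCE and 1276 CPM in rhIL-7-hyFc 1.25 mg/kg, a fold of 1.03 (1.02 to 1.04). Cd3g was then lower, at 1595 CPM against 1728 CPM, a fold of 0.923 (0.913 to 0.933), and so was Lck at 0.894. Cd3d was at 0.994, Cd247 at 0.978, Zap70 at 1.05, Lat at 0.937, Cd5 at 0.979 and Cd6 at 0.993. For 7 of the 9 genes the direction over all T barcodes was thus not held once these barcodes were left out, and Cd3e and Zap70 stayed above 1. Of those 7, Cd3d, Cd247, Cd5 and Cd6 had CPM intervals that overlapped between the libraries, and Cd3g, Lck and Lat did not.

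The same was done within classes of cells, a comparison added after the data had been seen. In expanded cells with under 2 myeloid UMIs, Cd3g had 2121 CPM in rhIL-7-hyFc plus TCE and 2442 CPM in rhIL-7-hyFc 1.25 mg/kg, a fold of 0.869 (0.856 to 0.882), and Cd3e was at 1.03. In Pdcd1 cells with under 2 myeloid UMIs, Cd3g had 1872 CPM against 2298 CPM in rhIL-7-hyFc 1.25 mg/kg, a fold of 0.815 (0.804 to 0.825), and Cd3e had 1488 CPM against 1537 CPM, a fold of 0.969. The ratio of Cd3g to Cd3d, which does not depend on the total of a barcode set, was lower in expanded cells of rhIL-7-hyFc plus TCE as well, at 1.43 against 1.61 in rhIL-7-hyFc 1.25 mg/kg. With all barcodes kept, expanded cells had folds of 1.24 for Cd3e and 1.05 for Cd3g, and cells seen once of 1.11 for Cd3e and 1.03 for Cd3g.

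**Figure D4:**
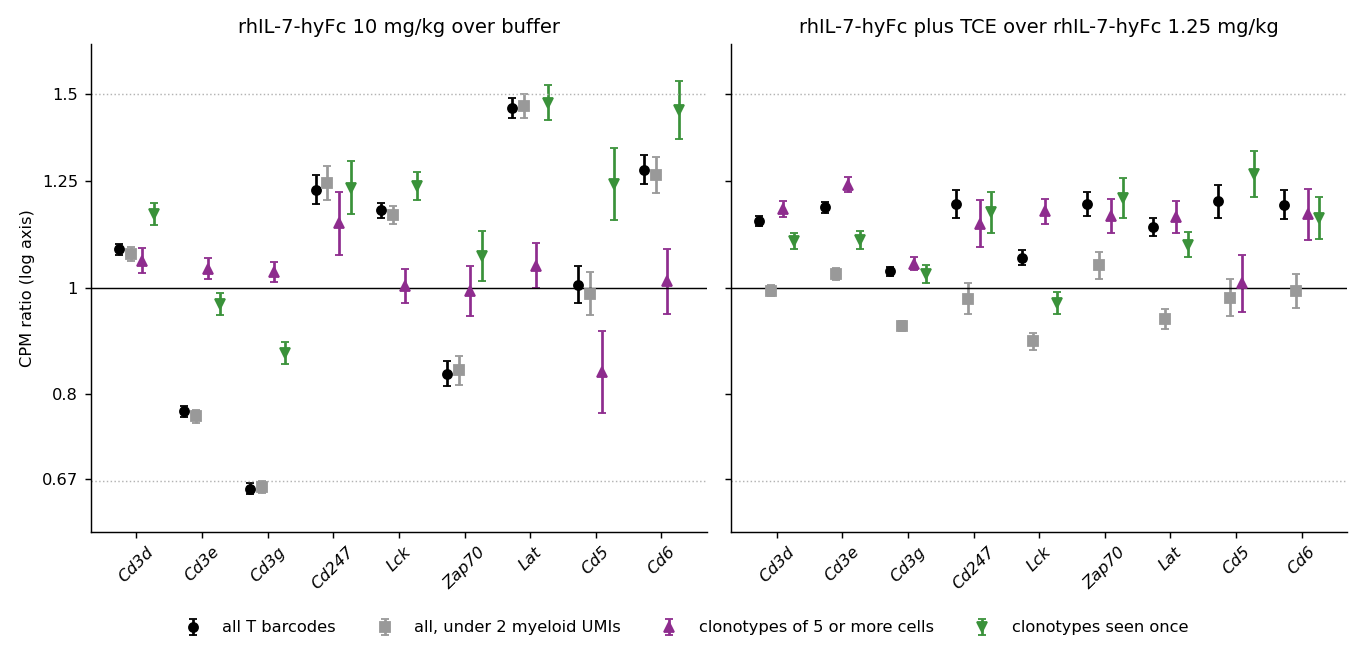
Ratio of CPM (log axis) of the 9 genes for rhIL-7-hyFc 10 mg/kg over buffer (left) and rhIL-7-hyFc plus TCE over rhIL-7-hyFc 1.25 mg/kg (right), over all T barcodes, those with under 2 myeloid UMIs, clonotypes of 5 or more cells and clonotypes seen once, with 95% counting intervals and dotted lines at 1.5-fold either way. On the left Cd3g lies at 0.656 over all T barcodes and at 1.03 in clonotypes of 5 or more cells. On the right, T barcodes with under 2 myeloid UMIs have Cd3e at 1.03 and Cd3g at 0.923.

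The wider signalling chain was read from 61 genes in 5 lists. By clone size, 7 were higher and 11 lower past 1.5-fold of 59 measured in rhIL-7-hyFc 10 mg/kg (background 23.2% and 10.4%), and 8 and 6 of 60 in buffer (13.8% and 8.64%). Past 1.5-fold in rhIL-7-hyFc plus TCE were 5 and 7 of 60 (11.7% and 7.03%), and in rhIL-7-hyFc 1.25 mg/kg 6 and 13 of 60 (14.5% and 9%). Past it in the same direction in all 4 libraries were Cd8a, Ptpn6 and Ubash3b, higher, and Dgka, Nfatc3 and Txk, lower, of 59 genes (background over 8405 genes 6.13% higher and 3.96% lower). Ubash3b, a phosphatase known to act on ZAP70, had 116, 144, 116 and 104 CPM in expanded cells of rhIL-7-hyFc 10 mg/kg, buffer, rhIL-7-hyFc plus TCE and rhIL-7-hyFc 1.25 mg/kg and 26.0, 39.8, 36.6 and 29.1 CPM in cells seen once. Its folds of 3.16 to 4.46 exceeded those of every one of the 9 members. Cd8a, the coreceptor chain that brings LCK, had folds of 1.79 to 2.11, and Ptpn6, the gene of the phosphatase SHP-1, of 1.55 to 1.83. T barcodes were required to hold a UMI of Cd8a or Cd8b1, so all values of Cd8a come from cells chosen partly by it. Dgka, which removes diacylglycerol made after TCR signalling, had folds of 0.400 to 0.505, and Txk, a TEC family kinase, of 0.294 to 0.508. Fyn, the other Src family kinase of the TCR, was lower at 0.508 to 0.829, as Lck was in 3 libraries. Lcp2, which encodes the LAT partner SLP-76, was higher at 1.16 to 1.34, unlike Lat.

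By treatment, 4 of the 59 measured genes were higher and 3 lower past 1.5-fold in rhIL-7-hyFc 10 mg/kg over buffer (background 7.34% and 15.6%). Ubash3b had 40.9 CPM in rhIL-7-hyFc 10 mg/kg and 115 CPM in buffer, a fold of 0.356, and Cd8a had 765 CPM against 1256 CPM, a fold of 0.609. Txk had 143 CPM against 74.7 CPM in buffer, a fold of 1.91, Dgka 142 CPM against 79.6 CPM, a fold of 1.78, and Fyn was at 1.70. Other genes that the naming rule took were Pag1 at 1.52, Nfatc2 at 1.46, Skap1 at 1.45 and Cd28 at 0.735. These folds are over all T barcodes, where clone classes were unequally filled. Clonotypes of 5 or more cells held 395 of 5303 T barcodes in rhIL-7-hyFc 10 mg/kg and 1538 of 2873 in buffer. Within expanded cells and within cells seen once, the Ubash3b levels given above were closer between these libraries, in the same direction. With the engager (rhIL-7-hyFc plus TCE over rhIL-7-hyFc 1.25 mg/kg), the count past 1.5-fold was 1 of 60 genes higher and 0 lower (background 1.8% and 8.01%). That gene was Cblb, a ubiquitin ligase that restrains TCR signalling, with 219 CPM in rhIL-7-hyFc plus TCE and 146 CPM in rhIL-7-hyFc 1.25 mg/kg, a fold of 1.51 (1.46 to 1.55). Beside it stood Cd28 at 1.40, Sh2d2a at 1.37, Ubash3a at 1.35, Map4k1 at 1.28, Trbc1 at 1.27 and Plcg1 at 1.2, with Vav1 at 0.775, Txk at 0.772 and Fyb at 0.747. All these folds are over all T barcodes. Of those, 7.2% in rhIL-7-hyFc plus TCE and 26.7% in rhIL-7-hyFc 1.25 mg/kg held 2 or more myeloid UMIs. The folds are not given without such barcodes. The direction of most members was not held without them, and some of those members lay close to 1 (above).

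**Figure D5:**
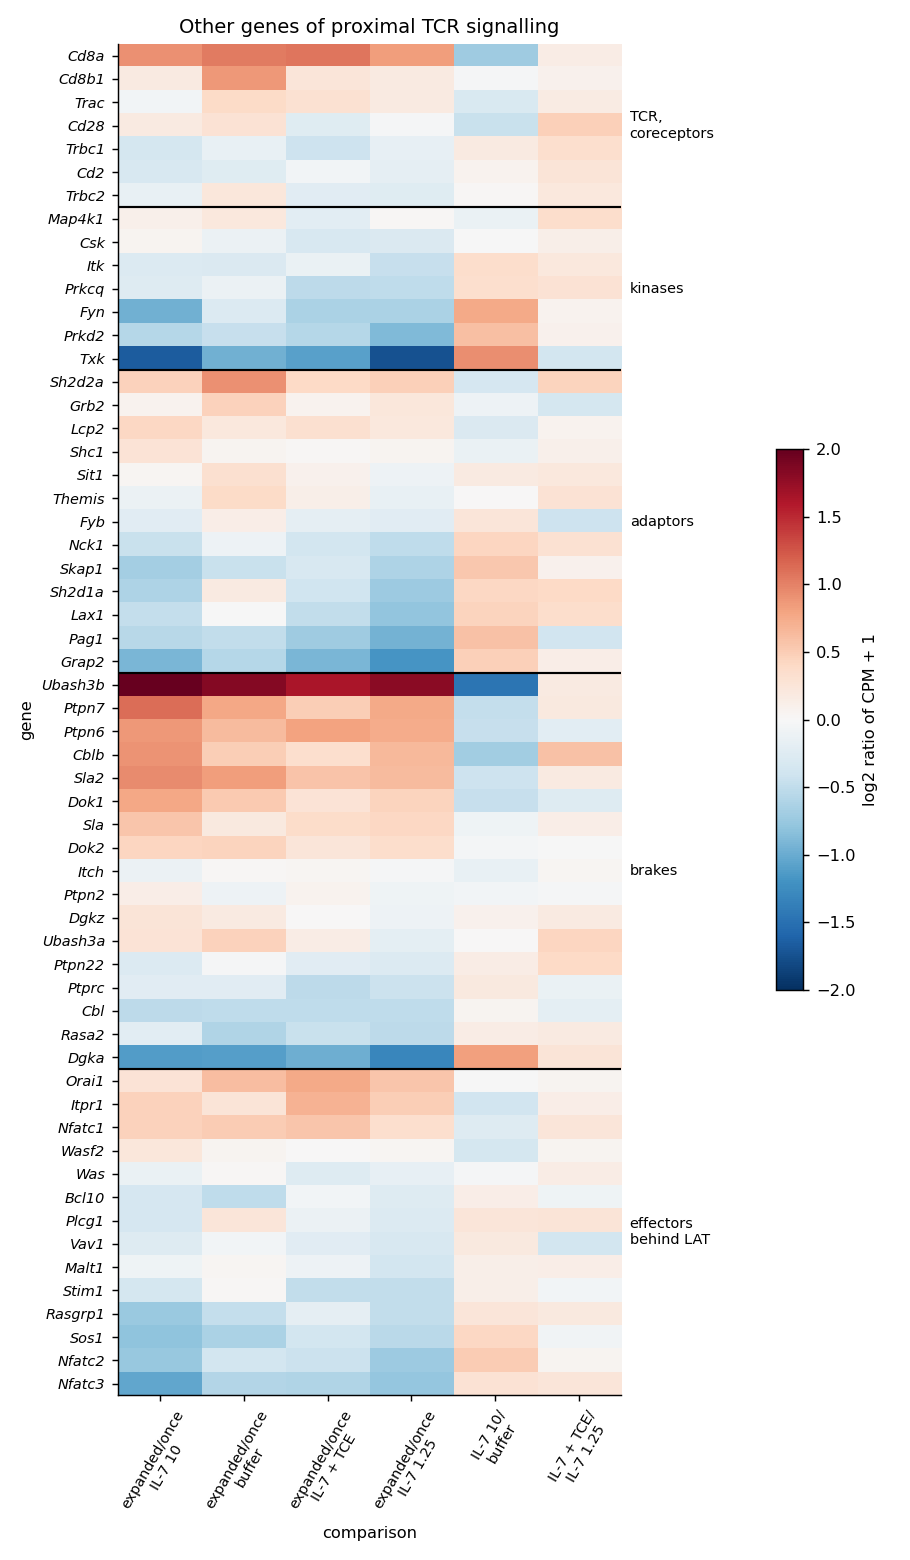
Log2 ratio of CPM + 1 (colour, limited to ±2) for genes of the wider lists measured in all 6 comparisons, grouped by role, for expanded clonotypes over clonotypes seen once in each library (4 columns) and for treatment in each experiment (2 columns). Ubash3b and Cd8a are high and Txk and Dgka low in all 4 clone columns, and these 4 genes have the opposite colour in the column of rhIL-7-hyFc 10 mg/kg over buffer. The T barcodes were selected in part on Cd8a.

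The genes whose level varied most like that of Cd3e were sought among 1532 genes with at least 50 CPM in each of 24 sets of cells (library by clone class by Pdcd1 state, the smallest of 14 cells), on log2(CPM + 1) centred within an experiment. The highest Pearson r were those of Klrd1 (0.936), Il2rb (0.935), Cd3g (0.934), Ndfip1 (0.934) and AW112010 (0.934). Klrd1 encodes the NK receptor chain CD94, and Il2rb the β chain of the interleukin-2 and interleukin-15 receptors. Zap70 ranked 75 with r = 0.825 and Cd3d ranked 699 with r = 0.331, while Lat (−0.567) and Lck (−0.412) ran the other way. These sets share libraries and depth within an experiment, and the values are a description of them.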

How the data were processed

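Per the file headers, Cell Ranger 4.0.0 (experiment 1) and 6.1.2 (experiment 2) made the matrices, deposited by the authors as whole UMI counts. The submitters' processing notes name GRCm38. Contig tables, also deposited, list TCR chains with their UMI counts, and the sources used here do not name the software version behind them. The deposited libraries held 47308214 to 118191371 UMIs. Groups were compared only within an experiment, since dose, timing and isolation differed.

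Counts were summed per library and class of cells and given as CPM with exact Poisson intervals. Folds are ratios of CPM with exact conditional binomial intervals, all at 95% and for counting error only, since UMIs of 1 library do not show how mice differ. Genes with at least 5 CPM in 1 of 2 sums counted as measured, and a gene was past 1.5-fold on log2(CPM + 1). Scripts ran in Python 3.11.15 with numpy 2.4.6, scipy 1.17.1, pandas 2.3.3 and matplotlib 3.10.9. Alternatives used TMM factors (edgeR 4.0.16) and DESeq2 1.42.0 size factors in R 4.3.3, with no fitted test. The folds were tested on simulated data. No doublet caller was run, and barcodes with more than 1 TRB were left out as an alternative. Promoters came from RefSeq (GRCm38.p6), where 8 of the 9 members had an entry.

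The members, lists and classes were chosen with earlier results of these data known. Named genes were the 9 members, from each wider list the 2 genes with the largest treatment log2 ratio in each experiment at 20 CPM or more, and the 5 genes most like Cd3e. Of these, 1 is not reported here. Lcp2, and the genes past 1.5-fold by clone size in all 4 libraries, were named after their values had been seen.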

Additional observations from a re-analysis of the deposited data

Results flagged for a closer look

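Some effects ran in opposite directions in 2 libraries or classes of an experiment, with counting intervals on opposite sides of 1, and the differences between them were not tested, since each group was 1 library. The ratio of clonotypes of 5 or more cells to clonotypes seen once was 0.907 for Cd5 in rhIL-7-hyFc 10 mg/kg and 1.34 in buffer. For Cd6 it was 0.809 in rhIL-7-hyFc 10 mg/kg and 1.16 in buffer. The ratio of cells with a Pdcd1 UMI to cells without was 0.963 for Cd3d in rhIL-7-hyFc 10 mg/kg and 1.1 in buffer, and 0.934 for Cd5 in rhIL-7-hyFc 10 mg/kg and 1.12 in buffer.

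The fold of rhIL-7-hyFc 10 mg/kg over buffer turned with the class of cells for 3 genes. Cd5 was at 0.838 in clonotypes of 5 or more cells and 1.24 in clonotypes seen once, and at 0.938 in cells with a Pdcd1 UMI and 1.12 in cells without. Cd3g was at 1.03 in clonotypes of 5 or more cells and 0.872 in clonotypes seen once, and Cd3e at 1.04 and 0.966 in the same classes. In experiment 2 the fold of rhIL-7-hyFc plus TCE over rhIL-7-hyFc 1.25 mg/kg for Lck was 1.17 in clonotypes of 5 or more cells and 0.968 in clonotypes seen once. Among barcodes with under 2 myeloid UMIs, classes added after the data had been seen, the fold of Lck was 0.995 in clonotypes of 5 or more cells and 0.853 in clonotypes seen once, so the directions were no longer opposite.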

How the results depend on the processing

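No paired analysis was possible because each group was 1 library. Each comparison was recomputed under up to 18 alternatives, and the number of the 9 members past 1.5-fold was the measure, taken as moved where it changed by more than 1.5 times. The share of all genes past 1.5-fold is not given under the alternatives. A changed count therefore does not show whether the members moved apart from all genes. For rhIL-7-hyFc plus TCE over rhIL-7-hyFc 1.25 mg/kg the number of members was 0 under every alternative run, and for rhIL-7-hyFc 10 mg/kg over buffer it was 1 and became 0 with each clonotype counted once. By clone size it was 2 in buffer and became 1 with TMM factors, with DESeq2 size factors, with each clonotype counted once, without the largest clonotype and within cells with a Pdcd1 UMI, and it was 3 under 6 others. Within cells with a Pdcd1 UMI it also became 1 in rhIL-7-hyFc 10 mg/kg and in rhIL-7-hyFc 1.25 mg/kg, where it had been 3. In rhIL-7-hyFc plus TCE it was 5 and became 3 with each clonotype counted once.

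By Pdcd1 state it was 1 in rhIL-7-hyFc 10 mg/kg and became 2 with TMM factors, DESeq2 size factors, the state read from thinned counts, within clonotypes of 5 or more cells, and without barcodes with over 1 TRB or with an Mki67 or Top2a UMI. It became 3 with the state set at 2 or more Pdcd1 UMIs and 0 within clonotypes seen once. In buffer it was 1 and became 3 without Mki67 or Top2a barcodes, and 0 with each clonotype counted once or within clonotypes seen once. In rhIL-7-hyFc plus TCE it was 2 and became 1 without barcodes with over 1 TRB, without those with 2 or more myeloid UMIs, and with no Cd8 requirement. There and in rhIL-7-hyFc 1.25 mg/kg it became 0 with each clonotype counted once and within either clone class, and in rhIL-7-hyFc 1.25 mg/kg it became 1 with the state from thinned counts. Lat, lower in Pdcd1 cells of rhIL-7-hyFc 1.25 mg/kg, had a log2 ratio of 0.0892 within clonotypes of 5 or more cells. The cause of these moves was not tested. Cd3g, Cd3e and Zap70 kept a positive log2 ratio by clone size and by Pdcd1 state in all 4 libraries under these alternatives, but among cells without a Pdcd1 UMI Zap70 was at 0.959 by clone size in rhIL-7-hyFc 10 mg/kg. Cd5 and Cd6 counts are low in single clonotypes, which limits their values there.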
